A study of Mus musculus with 4 samples.

Results

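Rap GTPases are switched on by guanine nucleotide exchange factors and off by GTPase activating proteins, and 10 genes of these classes were examined. The 6 exchange factors were Rapgef1, Rapgef2, Rapgef3, Rapgef4, Rapgef6 and Rasgrp3, and the 4 GTPase activators were Rap1gap, Rap1gap2, Sipa1 and Sipa1l1. They were listed by name. Every non-control probe whose accession mapped to one of these symbols was taken, which gave 19 of 41174 probes, and 10 of the 18224 genes with a named probe. The RNA came from microvascular smooth muscle cells of male C57BL6 mice lacking Rap1a, so both groups carry the knockout and no wild-type cells were compared. One group carried an empty shuttle vector and the other a shuttle vector named RapCA, which is not spelled out in the labels. Virus was given overnight in medium without serum when cells grown in 10% serum were plated, and cells then recovered for 48 h in 0.5% serum. On each of 4 two-colour arrays, all on 1 slide, the empty-vector RNA was labelled with Cy5 and the RapCA RNA with Cy3. The arrays are labelled as biological replicates, with no mention of separate cultures or animals, so p-values measure the spread between these arrays, which may be technical.

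An exchange factor opens the nucleotide pocket of Rap so that GDP leaves and GTP enters, and a GTPase activator speeds the hydrolysis of that GTP. Each regulator couples Rap to a different input: Rapgef3 and Rapgef4 (also called Epac1 and Epac2) bind cyclic AMP, Rapgef1 is carried to tyrosine-phosphorylated scaffolds by Crk adaptors, and Rasgrp3 responds to diacylglycerol. In vascular smooth muscle, cyclic AMP acting through Epac proteins and Rap1 is known as a route to changes in tone and adhesion.

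No array had the dyes exchanged, so dye and vector cannot be told apart, and each ratio is the log2 of Cy3 (labelled RapCA) over Cy5 (labelled vector). The probe of Rap1a, the deleted gene, had signal in both channels and less in the channel labelled RapCA, at -1.06 ± 0.44 (SD, n = 4 arrays; limma adjusted p = 0.00204). The labels do not say what the RapCA vector carries, so they give no direction for that gene. Of the 5 Rap1 and Rap2 genes, 1 was higher and 1 lower by their brightest probe (median -0.19), the higher one being Rap1b at 0.80 ± 0.54 (adjusted p = 0.0134), a call lost with median centring (0.60; adjusted p = 0.313). Where the probe lies relative to the deleted part is not given in the sources used here, so it may check nothing, and every direction below follows the dye labels alone. Replicate 1 stood apart from the other arrays. Its log2 ratios correlated with theirs at 0.69 to 0.78 over 23485 probes, against 0.93 to 0.98 among replicates 2 to 4, and in the channel labelled vector 51.3% of its probes were well above background against 60.1% to 61.9%. The raw net signal of that channel on replicate 1 was 44.0% of the mean of the other arrays at the median probe, whereas that of the channel labelled RapCA was 111%. The ratio differed from 0 at 49.6% of the 23497 probes tested (26.4% with more signal in the RapCA channel and 23.2% with less), and at 53.9% of 12393 genes by their brightest probe. In a bulk measurement fewer cells of a kind and less RNA per cell cannot be told apart.

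The cyclic AMP sensors Rapgef3 and Rapgef4 are close relatives in protein, but on these arrays 1 was measured in both channels and the other in neither. The 250 bases before the recorded start of each gene are shown so that the genes can be compared at their promoters. Both come from RefSeq on GRCm38.p6 and read 5′ to 3′ on the gene's strand. Capitals mark the GC box, GGGCGG on either strand, and in Rapgef4 the second match overlaps both the first and the third.
Rapgef3, chr15:97767667-97767916, minus strand: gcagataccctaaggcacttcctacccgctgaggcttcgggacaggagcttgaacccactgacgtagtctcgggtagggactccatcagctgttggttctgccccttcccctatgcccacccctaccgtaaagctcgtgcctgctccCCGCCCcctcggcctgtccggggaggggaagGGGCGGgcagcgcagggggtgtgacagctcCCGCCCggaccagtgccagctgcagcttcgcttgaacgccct
Rapgef4, chr2:71980965-71981214, plus strand: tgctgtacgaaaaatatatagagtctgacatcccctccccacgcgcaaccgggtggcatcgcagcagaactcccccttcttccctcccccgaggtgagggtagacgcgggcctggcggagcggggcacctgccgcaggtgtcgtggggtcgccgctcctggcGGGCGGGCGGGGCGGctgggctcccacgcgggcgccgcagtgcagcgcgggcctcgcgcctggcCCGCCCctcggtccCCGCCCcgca
Over 300-base windows from 250 bases before to 50 after the start, Rapgef3 had 3 GC boxes and 65.0% GC, and Rapgef4 had 5 GC boxes and 76.7% GC. All 10 genes matched the RefSeq table, with 22 recorded starts, and 14 of the 22 windows held a GC box against 35.7% of all 32851 windows. Windows of 1 gene can overlap and share a box, and Rap1gap alone had 7 starts, so the windows are not independent. By gene, 8 of the 10 held a GC box at a recorded start, against 38.2% of all 27025 genes. A gene counted if any of its starts held a box. The 10 members had 22 windows where the 27025 genes had 32851, so members had more starts per gene to hold one. None of the 22 held the full cyclic AMP response element TGACGTCA (1.79% of all windows) or the AP-1 site TGANTCA (7.81%), both searched on each strand. The E-box CACGTG was found in 2 windows of Rap1gap, which overlap and share the same site (7.15% of all windows). The TEAD site GGAATG was found in 3 windows, of Rap1gap and Rasgrp3 (14.7%). A match or its absence describes these letters only. Rapgef2 and Rasgrp3 were the members with no GC box at any recorded start, and the first Rapgef2 window had 44.0% GC against a median of 52.7% over all windows.

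Of the 19 probes, 15 had at least 1 channel in which every array was well above background, the filter for testing, and they covered 8 of the 10 genes. Rapgef3 and 1 of the 2 Sipa1l1 probes were about 2.7-fold higher in the channel labelled RapCA. These were the only member probes called at 2-fold or more, against 13.2% of all probes (7.33% higher). Smaller differences passed for Rap1gap and for Rapgef1, whose brighter probe turned to -0.039 with median centring. At the settings used throughout, limma called no member probe lower (5 called higher, 10 not called), where 2 were lower at an unadjusted p under 0.05. Without replicate 1, 6 member probes were called lower, with array quality weights 7, and with each of 3 further settings 1. Over the whole array 16371 of 24820 probes were called without replicate 1, 49.9% of them higher. With array quality weights 17946 of 23497 were called, 51.2% of them higher. Lower calls were thus common among all probes at both settings. At the settings used throughout, 5 of 15 member probes were called against 49.6% of all probes tested, so calls were not more common here than in general. With each gene read at its brightest probe, 2 of the 4 exchange factors tested were higher and 1 of the 4 GTPase activators, with medians of 0.08 and 0.23 against 0.02 over all genes tested. The rest of these genes were not called, whereas 28.9% of all genes were called higher and 24.9% lower. On single arrays the mean ratio of the 4 exchange factors was 0.53, 0.19, 0.27 and 0.08 on replicates 1 to 4, and that of the 4 activators 0.31, 0.20, 0.10 and 0.33. The exchange factors had the higher mean on replicates 1 and 3 and the activators on replicates 2 and 4. The signals of the 2 channels did not overlap between arrays at 4 of the 15 probes, against 32.5% of all probes tested.

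**Figure D1:**
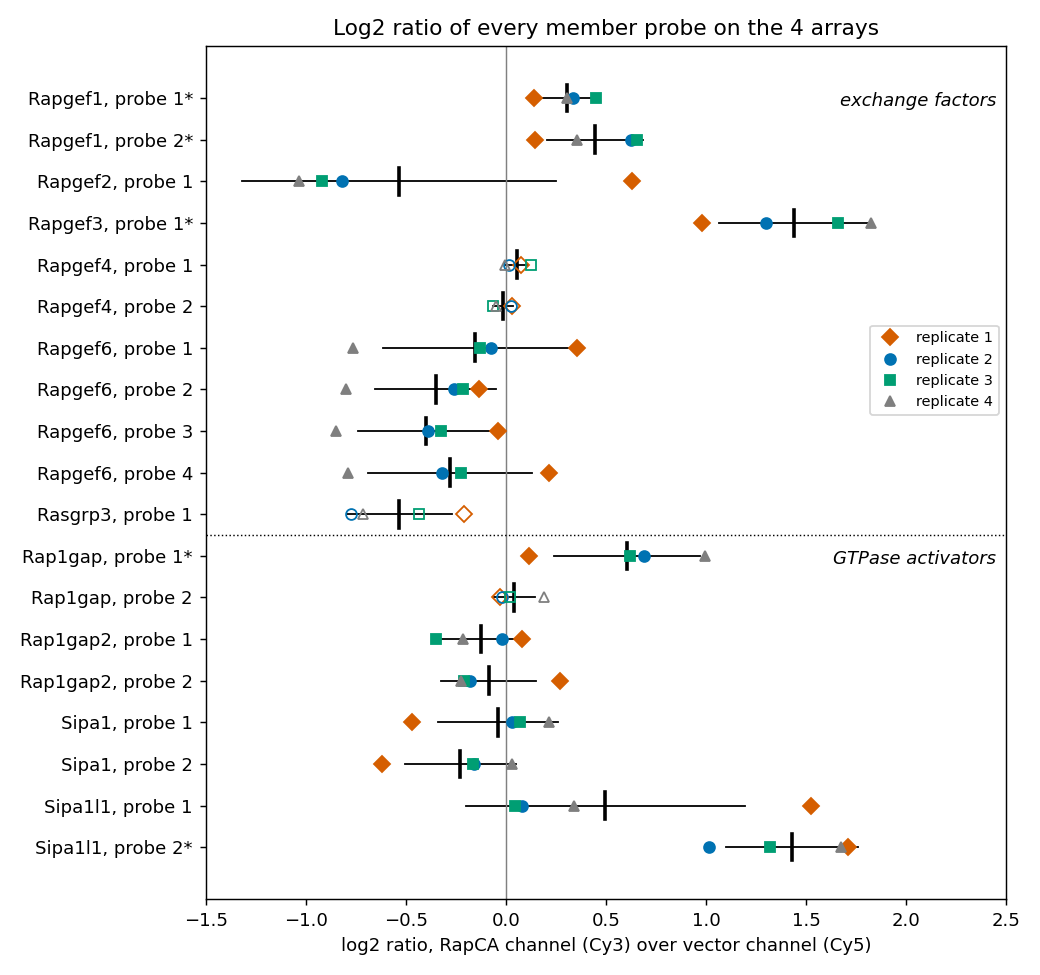
Log2 ratio (RapCA channel over vector channel, horizontal axis) of each of the 19 member probes (rows, numbered from brighter to dimmer within a gene) on the 4 arrays. Points are arrays, black ticks are means, thin lines are 1 SD, open points are probes that did not pass the filter, and asterisks mark a limma adjusted p under 0.05; Rapgef3 and Sipa1l1 probe 2 lie farthest to the right, and replicate 1 lies alone on the right of 0 for Rapgef2.

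Rapgef3, the cyclic AMP-gated exchange factor Epac1, had the highest mean ratio of the member probes, just above a Sipa1l1 probe. Its raw net signal in the channel labelled RapCA was 2160, 1541.5, 1781 and 2186.5 on replicates 1 to 4, and for vector it was 754.5, 983.5, 1050 and 972. After normalization the log2 signal was 10.89, 10.99, 11.32 and 11.49 against 9.90, 9.69, 9.66 and 9.66. All 4 arrays were higher in the channel labelled RapCA, the 2 ranges did not overlap, and the vector channel varied less (SD 0.12) than the RapCA channel (SD 0.28). The log2 ratios were 0.98, 1.30, 1.66 and 1.82, a mean of 1.44 ± 0.38 (SD, n = 4), or 2.72-fold, with a 95% interval of 1.08 to 1.80 and a limma adjusted p = 0.00034. Only 3.12% of all probes tested had a ratio at least as high. The call held under all 14 alternatives.

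Rapgef4, which encodes Epac2, was not measured by either of its probes. Neither was well above background in either channel on any array, so no ratio or fold is given. The raw net signals of the brighter probe were 0.5 to 3.5 in the channel labelled RapCA and 1 to 8.5 in the channel labelled vector. Those of the dimmer probe were -3 to 1 and -5 to 9. Whether the gene is transcribed at a level under that limit cannot be seen on these arrays.

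Rapgef1, whose product activates Rap downstream of Crk adaptors, was slightly higher in the channel labelled RapCA by both of its probes. The brighter probe had log2 ratios of 0.14, 0.33, 0.45 and 0.30 on replicates 1 to 4, with a mean of 0.31 ± 0.13 (1.24-fold; limma adjusted p = 0.0387). The dimmer probe had 0.14, 0.62, 0.66 and 0.36, with a mean of 0.45 ± 0.24 (1.36-fold; adjusted p = 0.0192). All 8 values lay above 0, and replicate 1 gave the lowest value at both probes. The call was less firm than the sign: with the brighter probe it held under 5 of 14 alternatives, and with median centring of the arrays its ratio was -0.039 (adjusted p = 0.854). The dimmer probe kept its call under 11 of 14 and lost it with median centring (0.37; adjusted p = 0.0620) and without replicate 2 (0.39) or 3 (0.38). Its size also moved with the background correction, to 1.06 with the ratios of the scanner software.

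Rapgef2 and Rapgef6 encode PDZ-GEF1 and PDZ-GEF2, exchange factors for Rap1 and Rap2 that carry a PDZ domain. Rapgef2 gave the widest split between arrays of any member. Its log2 ratio was 0.63 on replicate 1 but -0.82, -0.92 and -1.03 on replicates 2, 3 and 4, a mean of -0.53 ± 0.78 that did not pass (limma adjusted p = 0.142; 95% interval -1.17 to 0.10). Replicate 1 was thus the only array with more signal in the channel labelled RapCA. The raw net signal of the channel labelled vector was 538 on that array and 4998, 4934 and 4073 on the others, while the channel labelled RapCA had 1262, 1665, 1285.5 and 1175. On replicate 1 the vector channel therefore held 11.5% of its mean on the other arrays, where the median probe held 44.0%, and the RapCA channel held 91.8%. Without replicate 1 the ratio was -0.92 (adjusted p = 9.30e-05), a setting at which 16371 of 24820 probes were called. With array quality weights, which gave replicate 1 the lowest weight, the ratio was -0.87 (adjusted p = 3.07e-07). Those weights were estimated from the same ratios, and 17946 of 23497 probes were called with them. Calls were thus common at both settings. The part that the low vector signal of replicate 1 plays in this split was not tested.

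Rapgef6 was measured with 4 probes, and their values lay closest together on replicate 4 and farthest apart on replicate 1. On replicate 4 they stood at -0.77, -0.80, -0.85 and -0.79, from the brightest probe to the dimmest, and this was the lowest array for each. On replicate 1 they stood at 0.35, -0.13, -0.04 and 0.21, the highest array for each. Replicates 2 and 3 lay between, from -0.39 to -0.07. Replicates 1 and 4 thus lay farther apart than the probes of any 1 array. Mean ratios over arrays were -0.15, -0.35, -0.40 and -0.28, a spread of 0.25 where the median spread over 4627 genes with at least 2 probes tested was 0.29. None passed limma's adjusted threshold (adjusted p = 0.504, 0.0654, 0.0520 and 0.194), and the means lay 1.11- to 1.32-fold lower in the channel labelled RapCA. Without replicate 1 the last 3 of these passed, at -0.42, -0.52 and -0.44 (adjusted p = 0.0222, 0.00692 and 0.0154), and the brightest had -0.32 (adjusted p = 0.0848). As for Rapgef2, the raw vector signal of the brightest probe was low on replicate 1, at 116 against 811 to 1126 on the other arrays. Its channel labelled RapCA was also low there, at 56.3% of its mean on the other arrays. For Rapgef2 that share was 91.8%, and at the median probe it was 111%.

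Rasgrp3, an exchange factor recruited by diacylglycerol, had 1 dim probe that was well above background on 3 of 4 arrays in each channel and so was not tested. Its log2 ratios were -0.21, -0.77, -0.43 and -0.71 on replicates 1 to 4, all below 0. The raw net signal was 16, 19, 15 and 8 in the channel labelled RapCA and 30, 126.5, 84 and 81.5 in the channel labelled vector, so on every array the dimmer channel was the one labelled RapCA. With no filter on dim probes the mean of -0.53 ± 0.26 passed (limma adjusted p = 0.0168), and without replicate 1, where it met the filter, it was -0.64 (adjusted p = 0.000903).

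**Figure D2:**
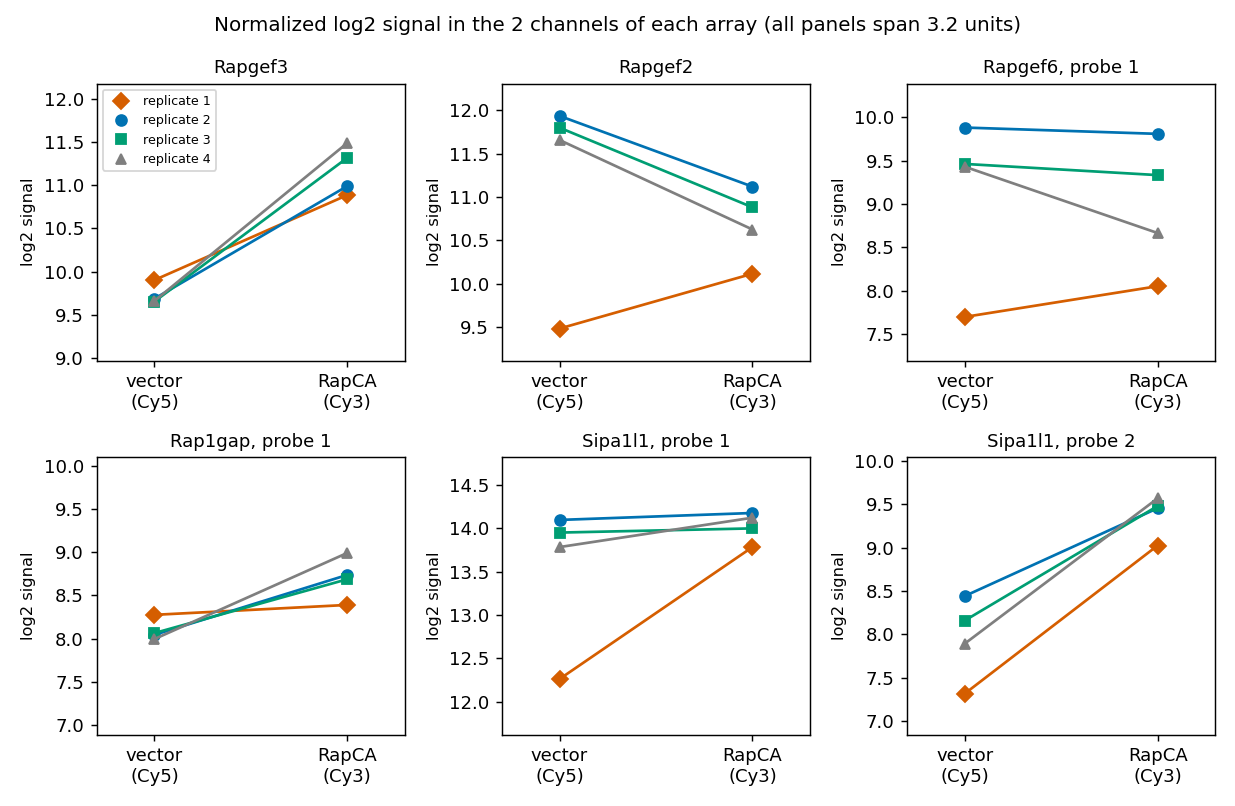
Normalized log2 signal of 6 member probes in the channel labelled vector (left in each panel) and the channel labelled RapCA (right), with 1 line per array; vertical axes differ in level but span the same range. Rapgef3, Rap1gap and both Sipa1l1 probes went up on all 4 lines, Sipa1l1 probe 1 only slightly on replicates 2 and 3. For Rapgef2, Rapgef6 and both Sipa1l1 probes replicate 1 started from a lower vector signal than the other arrays.

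Among the GTPase activators, Rap1gap had 1 probe that passed. Rap1gap is a Rap-specific GTPase activating protein that ends Rap1 signalling after G protein-coupled input. Its brighter probe had log2 ratios of 0.11, 0.69, 0.62 and 0.99 on replicates 1 to 4, with a mean of 0.61 ± 0.37 (1.52-fold; limma adjusted p = 0.0133). Log2 signals were 8.39, 8.74, 8.69 and 8.99 in the channel labelled RapCA. Those for vector averaged 8.10 ± 0.12 with a highest value of 8.28, so the 2 ranges did not overlap. Without replicate 2, 3 or 4 the mean was 0.58, 0.60 and 0.48 and did not pass (adjusted p = 0.0632, 0.0526 and 0.0543), and without replicate 1 it was 0.77 and passed (adjusted p = 0.000476). The dimmer probe was above background on 2 arrays for RapCA and on none for vector, and its ratios lay between -0.03 and 0.19.

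Rap1gap2, a relative of Rap1gap known from platelets, did not pass with either of 2 probes. Ratios of the brighter probe were 0.08, -0.02, -0.35 and -0.22 (mean -0.12 ± 0.19; limma adjusted p = 0.388), with a 95% interval of -0.39 to 0.14. Those of the dimmer probe were 0.27, -0.18, -0.21 and -0.23 (mean -0.09 ± 0.24; adjusted p = 0.586), and replicate 1 alone was above 0 at both probes. Without replicate 1 the dimmer probe had -0.20 and passed (adjusted p = 0.0359).

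Sipa1, also called Spa1 and best known as a Rap GTPase activating protein of blood cells, was well above background on every array, and its channels overlapped. Log2 signals of its brighter probe were 11.17, 11.52, 11.37 and 11.52 in the channel labelled RapCA and 11.64, 11.49, 11.29 and 11.31 in the channel labelled vector. The ratios were -0.47, 0.03, 0.07 and 0.22 (mean -0.04 ± 0.30; limma adjusted p = 0.839), and the 95% interval of -0.35 to 0.28 holds no 2-fold difference in either direction. The second probe gave -0.62, -0.16, -0.16 and 0.03 (mean -0.23 ± 0.28; adjusted p = 0.183) and ran 0.15 to 0.23 below the first on every array. Here replicate 1 was the lowest array, where it was the highest for Rapgef2 and Rapgef6. Of 7 leukocyte markers with a probe, Ptprc, Adgre1, Aif1 and Cd79a were not above background in either channel on any array, 2 were above it in both channels throughout, and 1 of the 3 tested was higher.

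Sipa1l1 (SPAR), a Rap GTPase activating protein tied to the actin cytoskeleton, was the gene whose probes differed most. The dimmer probe, annotated to NM_001167983, had log2 signals of 9.03, 9.46, 9.48 and 9.57 in the channel labelled RapCA and 7.32, 8.44, 8.16 and 7.89 in the channel labelled vector, with no overlap. Its ratios were 1.71, 1.01, 1.32 and 1.68, a mean of 1.43 ± 0.33, or 2.70-fold (95% interval 1.10 to 1.76; limma adjusted p = 0.000253), and the call held under all 14 alternatives. The brighter probe, annotated to NM_172579, gave 1.52, 0.08, 0.05 and 0.34, a mean of 0.50 ± 0.70 that did not pass (adjusted p = 0.131; 95% interval -0.08 to 1.07). Only replicate 1 was high at that probe, where the raw vector signal was 4680 against 24161, 23528.5 and 18791 on the other arrays, and without it the mean was 0.16. The ratio of the brighter probe minus that of the dimmer was -0.19, -0.93, -1.27 and -1.34 on replicates 1 to 4, below 0 on all 4 (exact sign-flip test over arrays, two-sided p = 0.125, the smallest that 4 arrays allow). The same p was reached by probe pairs with smaller mean differences, such as those of Rapgef1 (-0.14) and Sipa1 (0.19). It therefore does not set this pair apart. Of the genes with at least 2 probes tested, 7.87% had a spread between probes at least as wide as that of Sipa1l1. Which transcripts each probe detects was not analysed here, so the probes are described one by one. In the counts by gene the brighter probe stands for Sipa1l1. With the mean of all tested probes in place of the brightest, the gene had 0.96 and passed (adjusted p = 0.00369).

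Several of the differences between arrays above came from replicate 1. Its ratio was opposite in sign to all of replicates 2, 3 and 4 at 6 of the 15 tested probes, of Rapgef2, Rapgef6, Rap1gap2 and Sipa1, against 21.2% of all probes tested. These 6 probes belong to 4 genes and are not independent. At 2 probes, of Rapgef2 and Sipa1l1, it lay more than 1 log2 unit from the mean of the other arrays, against 5.22% of all probes. Without it 5 member probes were called higher, as with all arrays, and 6 lower, of Rapgef2, Rapgef6 (3 probes), Rap1gap2 and Rasgrp3. Over the whole array both counts were larger without it, with 8163 probes called higher in place of 6210 and 8208 lower in place of 5446, and 24820 probes tested in place of 23497.

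**Figure D3:**
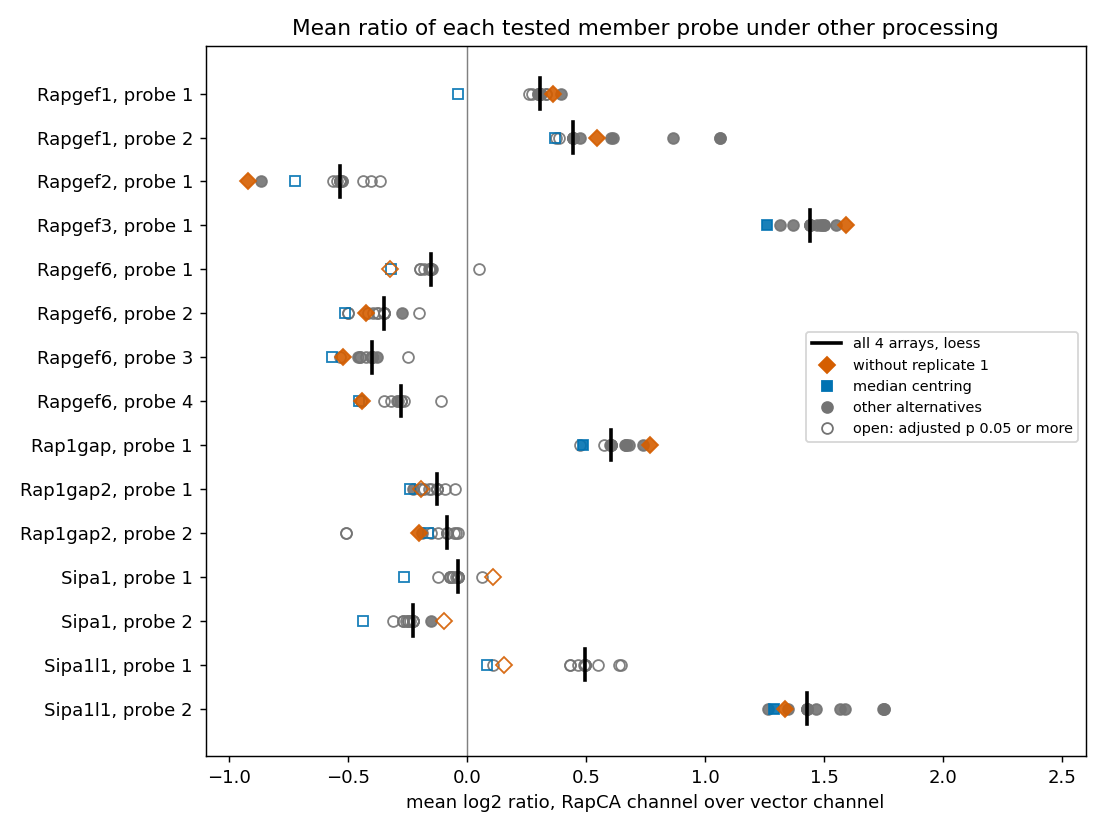
Mean log2 ratio of the 15 tested member probes with all 4 arrays and loess normalization (black ticks) and under each alternative (points; filled where the limma adjusted p was under 0.05). Rapgef3 and Sipa1l1 probe 2 stayed filled throughout, Rapgef1 probe 1 crossed 0 with median centring, and Rapgef2 and 3 of 4 Rapgef6 probes were filled without replicate 1.

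Other regulators of Rap were read from lists of genes not among the 10. Of 7 other exchange factors, 4 were tested: Plce1, a phospholipase with an exchange domain, was higher at 0.76 ± 0.15 (limma adjusted p = 0.00104) and Rapgefl1 at 0.41 ± 0.22 (adjusted p = 0.0230). The Plce1 probe was dim and above background in the channel labelled vector on 3 of 4 arrays. Its mean ran from 0.65 to 1.83 under the alternatives, with the call kept, and its second probe was not tested. Dock4 and Rasgrp4 did not pass, at -0.28 ± 0.21 (adjusted p = 0.0801) and -0.07 ± 0.15 (adjusted p = 0.614). Rapgef5, Rasgrp1 and Rasgrp2 did not meet the filter, as with Rapgef4. Of 6 other GTPase activators with a probe, 5 were tested, 3 were higher and 1 was lower, with a median of 1.02. Rasa4 and Rasa3, GTPase activating proteins for Ras as well as Rap, had 1.73 ± 0.35 (adjusted p = 0.000138) and 1.02 ± 0.29 (adjusted p = 0.000816), and Garnl3, a gene related to Rap1gap, had 1.63 ± 0.22 (adjusted p = 7.25e-05). The dimmer Rasa3 probe was higher as well, at 1.36 ± 0.13 (limma adjusted p = 8.42e-05). Sipa1l2, a relative of Sipa1l1, was lower at -0.75 ± 0.18 (adjusted p = 0.00127). Of the 4 adaptors of Rapgef1 tested, the ubiquitin ligase gene Cbl was higher at its brighter probe, at 0.76 ± 0.38 (adjusted p = 0.00561), but not at its dimmer one (-0.21 ± 0.12; adjusted p = 0.121). Crk and Bcar1 did not pass, at -0.22 ± 0.64 (adjusted p = 0.459) and -0.19 ± 0.26 (adjusted p = 0.248), although the dimmer probes of Crk and of its relative Crkl were lower, at -0.83 ± 0.37 (adjusted p = 0.00345) and -0.37 ± 0.08 (adjusted p = 0.0164). The brighter Crkl probe did not pass, at -0.07 ± 0.41 (adjusted p = 0.754). With median centring the calls of Rapgefl1 (0.29; adjusted p = 0.335), Rasa3 (0.69; adjusted p = 0.119), Sipa1l2 (-0.93; adjusted p = 0.0540) and Cbl (0.61; adjusted p = 0.173) were lost, with the same signs. Bcar1 passed with it, at -0.54 (adjusted p = 0.0207). Without replicate 1 Crk and Dock4 passed as lower, at -0.49 (adjusted p = 0.0254) and -0.33 (adjusted p = 0.0290), and without replicate 2, 3 or 4 the call of Rapgefl1 was lost.

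**Figure D4:**
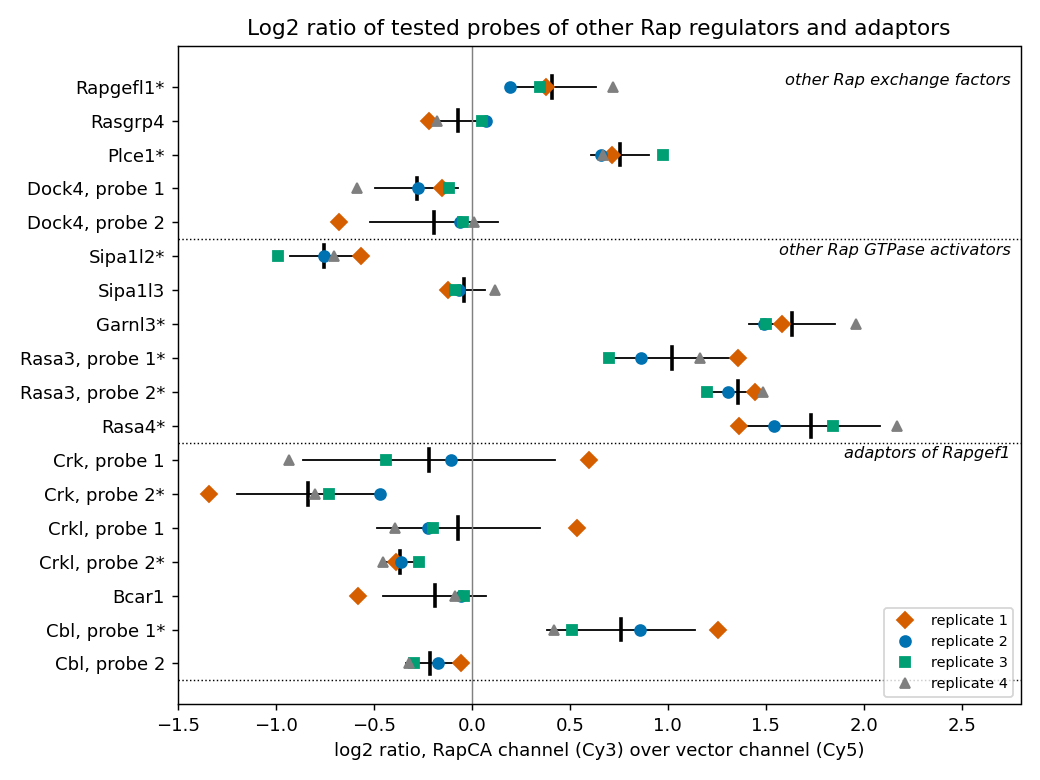
Log2 ratio (RapCA channel over vector channel, horizontal axis) of tested probes of other Rap exchange factors, other Rap GTPase activators and adaptors of Rapgef1 on the 4 arrays, drawn as in the plot of member ratios. Garnl3, Rasa3 and Rasa4 lie above 0 on all 4 arrays and Sipa1l2 below 0 on all 4, while the 2 probes of Cbl lie on opposite sides.

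The labelled cell type was checked against markers. Of 10 smooth muscle markers, 9 passed the background test for both dyes on every array and Des passed it on none, and 6 of the 9 tested were higher and 0 lower (median 0.68). Of 8 fibroblast markers, 7 were above background throughout, and 6 of the 7 tested were higher and 0 lower (median 2.29), with a summed raw net signal of 230256 to 284560 over arrays against 76677 to 133433 in the channel labelled vector. The smooth muscle sum was 290273 to 404942 against 282960 to 371294. Of 8 endothelial markers, Cdh5, Emcn, Erg, Pecam1 and Tie1 were not above background anywhere and 2 were above it throughout. Of the 3 endothelial markers tested 1 was higher and 2 were lower (median -0.75), with sums of 204 to 260 against 344 to 1009. The leukocyte sums were 122 to 172 against 169 to 211. Of 5 pericyte markers, Rgs5 and Abcc9 were not above background anywhere and 2 were above it throughout. Of the 3 pericyte markers tested 2 were higher and 1 was lower (median 0.88), with sums of 19049 to 26104 against 10086 to 16286. Over all genes tested, 28.9% were called higher. The smooth muscle and fibroblast markers that were called, and 2 of the 3 pericyte markers tested, thus went the same way as Rapgef3 and the dimmer Sipa1l1 probe. The part of these markers in the members' ratios was not tested.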

How the data were processed

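RNA of the 2 kinds was paired on each of 4 Agilent arrays. The scanner software was Agilent's Feature Extraction. The file headers give its version as 10.7.3.1, and the submitters' processing notes give 10.9. Used were the deposited median intensity per spot and its median local background, not normalized, per the file headers. The deposited log10 values hold Cy5 over Cy3, in both the scanner files and the series-wide file, after Feature Extraction's background subtraction and dye normalization, per the file headers; the series-wide values matched the scanner files within 5e-05 at 40929 probes with 1 spot, so their direction is known, and each column had a median of 0.

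Background was corrected with normexp (offset 50), followed by loess within arrays with control spots given no weight. Outlier spots (94 to 137 an array) were left out, no spot was saturated, and spots of a probe were averaged. A probe was tested if 1 or both channels were well above background on every array (23497 probes), with limma's lmFit and eBayes against 0, adjusted over all of them by Benjamini-Hochberg and called under 0.05, with at least 3 arrays. A gene's brightest tested probe stands for it. The number of arrays limits the precision. Accessions gave a symbol to 64.9% of probes through RefSeq. RefSeq's build here differs from that of the files, so no probe was placed. Named were all probes of the 10 genes, Rap1a, Rap1b, every called gene of the further lists and up to 4 genes not called, by smallest p. Crkl and the second probes of Crk, Cbl and Rasa3 were named after their values were seen. The members, lists and alternatives were chosen with earlier results of these data known. Of the further lists, Cblb had no named probe, and Rapgef5, Rasgrp1, Rasgrp2 and Rasal1 were not tested. The fit was tested on simulated data, where true changes of 0.5, 1 and 2 log2 units were recovered at 5.97%, 58.2% and 97.0% of changed probes, with 2 false calls. Only 66 or 67 of 23497 probes were changed at each size, whereas 49.6% were called in the data. The simulated errors of a probe were also independent and equally wide on every array, whereas replicate 1 stood apart in the data. These shares may therefore not hold for the data, and a probe that did not pass may still differ. R 4.3.3, limma 3.58.1, Python 3.11.15, pandas 2.3.3 and matplotlib 3.10.9 were used.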

Additional observations from a re-analysis of the deposited data

Results flagged for a closer look

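On 3 of the named probes, 1 array lay far from the other 3, as a share of their whole range. For Rapgef2 the log2 ratio of replicate 1 was 0.63 where the others lay between -1.03 and -0.82. For the dimmer probe of Rap1gap2 it was 0.27 on replicate 1 and -0.23 to -0.18 on the others. For Bcar1, an adaptor, it was -0.58 on replicate 1 and -0.09 to -0.04 on the others. Chance picks out about 1 in 20 such groups, and 28 were examined. All 3 values came from replicate 1, and no cause was tested.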

How the results depend on the processing

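The 15 tested member probes gave 208 values under 14 alternatives, of which 176 kept sign and call, 14 lost a call, 14 gained one and 4 changed sign. The sign changes were those of Rapgef1's brighter probe with median centring (-0.039), Sipa1's brighter probe with array quality weights (0.062) and without replicate 1 (0.11, against -0.12 without replicate 4), and Rapgef6's brightest probe without replicate 4 (0.051, against -0.32 without replicate 1). Outside the members, Rasgrp4 had 0.033 with array quality weights and Crk 0.018 without replicate 4 (-0.49 without replicate 1). Against 5 higher and 0 lower, the member probes called were 3 higher with median centring, 1 lower with an offset of 16, with no filter or with an intensity trend and robust variance, and 7 lower with array quality weights; leaving out 1 array gave 2 to 5 higher and 0 to 6 lower. Exchange factor genes called higher numbered 1 in place of 2 with an offset of 16, plain subtraction, median centring, trended variance, the deposited series table and the ratios of the scanner software, and those called lower 1 with no filter or array quality weights; leaving out 1 array gave 1 to 2 higher and 0 to 2 lower. GTPase activator genes called higher numbered 2 with the mean of all probes and 0 to 1 when 1 array was left out, and 1 was called lower with array quality weights. Over the whole array 6210 probes were called higher and 5446 lower, which became 2624 higher with median centring, 8756 lower with array quality weights and, with 1 array left out, 4367 to 8163 higher and 3518 to 8208 lower. With median centring the median over all probes went from 0.01 to -0.14, and the share of calls that were higher from 53.3% to 40.1%. No paired analysis beyond the ratio within each array was possible because each array already pairs 1 RNA of each kind. The cause of these changes was not tested. Signal over background limits Rapgef4, Rasgrp3 and the dimmer Rap1gap probe.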
